A study of Mus musculus with 6 samples.

Results

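The CYP4 enzymes are cytochrome P450s that hydroxylate fatty acids and eicosanoids at the terminal (omega) carbon. The set described here is the 10 genes Cyp4a10, Cyp4a14, Cyp4a31, Cyp4a32, Cyp4a12a, Cyp4a12b, Cyp4f13, Cyp4f14, Cyp4f15 and Cyp4v3, chosen by symbol from a table of 15960 genes. All 10 were in the table, and all 10 passed the filter on low values. The liver libraries came from 3 Cyp2e1-/- mice (knockout) and 3 Cyp2e1+/+ mice (wild type). Both genotypes were C57BL/6, aged 22 weeks, and had been on a high-fat diet for 14 weeks, so no library stands for a lean liver. CYP2E1 is a hepatic P450 that oxidizes ethanol, acetone and other small molecules. The sex of the mice, whether the genotypes were littermates, and which part of Cyp2e1 is deleted could not be read from the labels. The series concerns the crosstalk of CYP2E1 with PPARα, and the comparison asks whether hepatic Cyp4 transcripts differ when Cyp2e1 is lost.

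Omega-hydroxylation starts a route in which fatty acids are turned by alcohol and aldehyde dehydrogenases into dicarboxylic acids, which are then shortened in peroxisomes. PPARα is a nuclear receptor that binds fatty acids and drives their oxidation in hepatocytes, and mouse Cyp4a10 and Cyp4a14 are among its classic targets. Cyp4a12 enzymes are known for the omega-hydroxylation of arachidonic acid and for higher expression in male mice. CYP4F enzymes are known for the omega-hydroxylation of leukotriene B4 and other eicosanoids, and the human relative of Cyp4v3 is the gene mutated in Bietti crystalline dystrophy.

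Of the 10 transcripts, Cyp4a10, Cyp4a31 and Cyp4a32 are near-identical, as are Cyp4a12a and Cyp4a12b, which bears on how firmly reads can be given to each. The codons around the cysteine that binds the heme iron differ little within these groups, and they are printed because this stretch can be compared across all 10 genes. Each line holds 30 bases (10 codons) of the GRCm38 coding sequence, 5′ to 3′ on the transcribed strand. Capitals mark bases that differ from Cyp4a10. In each gene the stretch crosses an exon junction.
Cyp4a10: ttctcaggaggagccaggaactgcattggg
Cyp4a31: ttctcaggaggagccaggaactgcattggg
Cyp4a32: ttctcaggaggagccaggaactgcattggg
Cyp4a14: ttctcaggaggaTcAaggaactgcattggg
Cyp4a12a: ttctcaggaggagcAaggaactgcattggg
Cyp4a12b: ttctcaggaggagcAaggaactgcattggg
Cyp4f13: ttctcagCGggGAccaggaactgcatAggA
Cyp4f14: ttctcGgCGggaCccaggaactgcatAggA
Cyp4f15: ttctcCgCTggGCccaggaactgcatAggA
Cyp4v3: ttTtcTgCTggaCcTCgAaactgTattggT

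Cyp4a31 and Cyp4a32 had 0 differences from Cyp4a10 in this stretch, the Cyp4a12 pair had 1 and Cyp4a14 had 2. The Cyp4f genes differed at 6 or 7 bases and Cyp4v3 at 10. Over the whole coding sequence Cyp4a10 was 97.2% identical to Cyp4a32 and 96.6% identical to Cyp4a31, and Cyp4a12a was 98.5% identical to Cyp4a12b. Cyp4a14 stood apart, with 75.1% identity to Cyp4a10. Of the 31-base words of each transcript, 65.3% in Cyp4a32, 62.2% in Cyp4a12a, 62.9% in Cyp4a12b, 45.5% in Cyp4a10 and 31.4% in Cyp4a31 also occurred in another member. That share was 0.5% in Cyp4a14 and 0.0% in Cyp4v3. No source used here states how the authors' program divided reads between near-identical copies. The separate values of Cyp4a10, Cyp4a31 and Cyp4a32, and of Cyp4a12a and Cyp4a12b, are therefore uncertain, while Cyp4a14 shares almost none of its 31-base words with the rest.

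The 6 Cyp4a genes lie together on chromosome 4 of GRCm38 within 323462 bases. Their order is Cyp4a12a (chr4:115299046-115332815), Cyp4a12b (chr4:115411624-115439034), Cyp4a14 (chr4:115486200-115496158), Cyp4a10 (chr4:115518287-115533649), Cyp4a31 (chr4:115563627-115579015) and Cyp4a32 (chr4:115600927-115622507). Cyp4a14 is on the minus strand and the other 5 are on the plus strand. Cyp4f15 (chr17:32685631-32703352, plus strand), Cyp4f14 (chr17:32903357-32917376, minus strand) and Cyp4f13 (chr17:32924688-32947415, minus strand) share a region of chromosome 17. Cyp4v3 lies alone at chr8:45305801-45333163 on the minus strand.

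Levels are FPKM, fragments per kilobase of transcript per M fragments, so genes can be compared per length. The libraries held 9628 to 9963 genes at 1 FPKM or more. Cyp2e1 checked the labels, with 247 to 271 FPKM in the knockout and 5942 to 7427 in the wild type (log2 fold change -4.64, limma adjusted p = 6.7e-08). In knockout replicate 1 the 10 most abundant genes took 37.7% of all FPKM, against 32.5% to 33.5% in the other 5 libraries. Hepatocyte transcripts such as Alb, at 24938 to 33779 FPKM, were abundant in all 6 libraries, while 2 listed kidney markers together reached at most 0.08 FPKM. From steps in the low values, knockout replicate 1 was estimated to hold 11.7 M fragments and the other libraries 8.9 to 9.4 M. Over 15 ways of reading the steps these estimates ran from 8.1 to 14.0 M. The lowest member value, Cyp4a31 in the wild type, then rests on about 55 fragments, and the highest, Cyp4a14 in the knockout, on about 13401.

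Each fold change is the difference in mean log2(FPKM + 1), knockout less wild type, a scale that understates changes of low genes. A gene is said to rise or fall where limma's p, adjusted by Benjamini-Hochberg over 9968 tested genes, was under 0.05. Of the 10 members, 3 rose (Cyp4a10, Cyp4a14 and Cyp4a31) and 0 fell. Among all tested genes 0.472% rose and 0.291% fell. The 3 knockout values lay above all 3 wild type values for 4 members, against 5.32% of all genes, and below them for 2, against 10.04%. The median log2 fold change was 0.08 over the members and -0.03 over all tested genes. With 3 samples a group, whose collection the labels do not describe, each p reflects only how far these samples scatter.

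**Figure D1:**
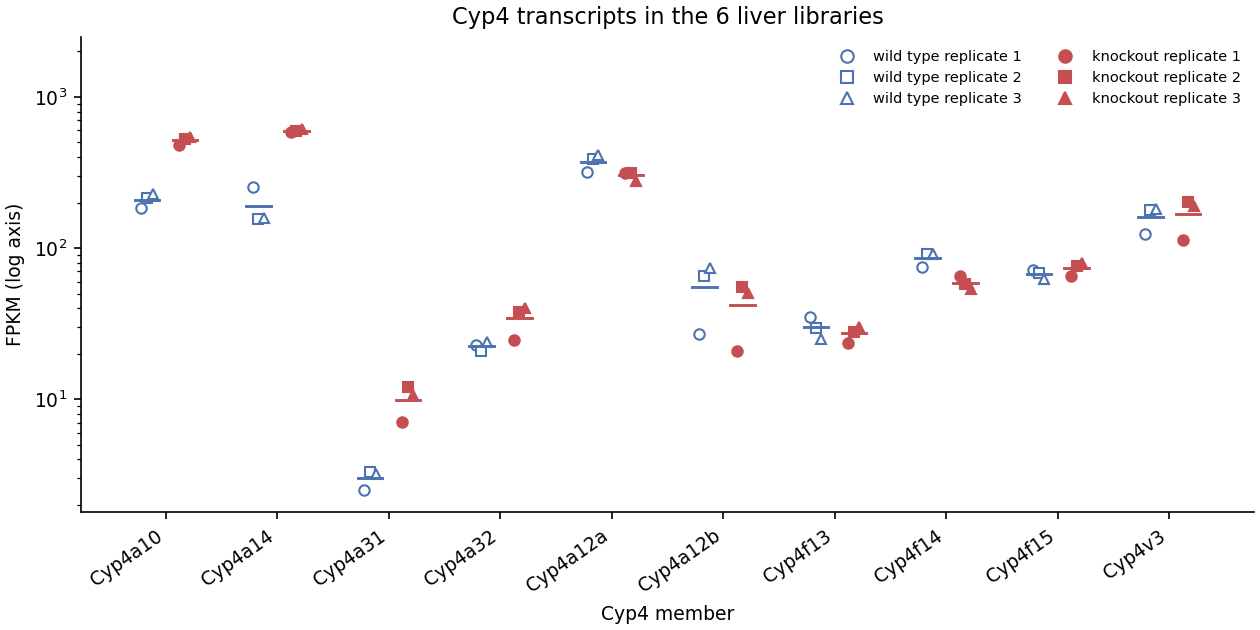
FPKM (log axis) of each Cyp4 member in the 3 wild type (open blue) and 3 knockout (filled red) libraries, with marker shape for the replicate number and a bar at the group mean. Cyp4a10, Cyp4a14, Cyp4a31 and Cyp4a32 have every knockout point above every wild type point, and Cyp4a12a and Cyp4f14 have every knockout point below.

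Cyp4a10, a PPARα target that omega-hydroxylates fatty acids, held 484, 530 and 540 FPKM in the knockout libraries and 184, 215 and 227 in the wild type libraries. The lowest knockout library was above the highest wild type library by a wide margin. The mean was 518 ± 30.1 FPKM against 209 ± 22.1 (n = 3 mice a genotype, SD), 2.48 times as high, and limma put the log2 fold change at 1.31 with an SE of 0.12 (adjusted p = 0.00088).

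Cyp4a14, the PPARα target with the most distinct sequence in the cluster, held 583, 596 and 609 FPKM in the knockout and 252, 156 and 158 in the wild type. Wild type replicate 1 stood above the other wild type libraries and still well below every knockout library. The mean was 596 ± 12.8 FPKM against 188 ± 54.8, 3.16 times as high, or 1.69 ± 0.18 (SE) as a log2 fold change (adjusted p = 0.0020 in limma). By group means Cyp4a14 was below Cyp4a12a and Cyp4a10 in the wild type and the highest member in the knockout. In wild type replicate 1, however, it was above Cyp4a10 (252 against 184 FPKM).

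Cyp4a31, a close copy of Cyp4a10, was the least abundant member in both genotypes. Its FPKM were 7.07, 12.1 and 10.7 in the knockout and 2.5, 3.28 and 3.20 in the wild type. Replicate 1 was the lowest library of each genotype, and the genotypes did not overlap. The mean of 9.95 ± 2.59 FPKM was 3.32 times that of the wild type, 2.99 ± 0.43, which is 1.43 ± 0.20 (SE) in log2 (adjusted p = 0.0093 in limma). The call was lost without knockout replicate 2 (limma adjusted p = 0.064) and when unfiltered genes were tested (limma adjusted p = 0.061).

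Cyp4a32, the other close copy, held 24.7, 37.6 and 40.3 FPKM in the knockout and 22.8, 20.8 and 23.8 in the wild type. All 3 knockout values were higher, but knockout replicate 1 exceeded the highest wild type library only slightly. The means were 34.2 ± 8.33 and 22.5 ± 1.52 FPKM, and the log2 fold change of 0.56 did not pass the test (SE 0.18; limma adjusted p = 0.28). Without knockout replicate 1 it was 0.77 and passed (limma adjusted p = 0.016).

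Because Cyp4a10, Cyp4a31 and Cyp4a32 share much sequence, their FPKM were also summed into 1 feature before the fit. The sum was 562 ± 40.8 FPKM in the knockout and 234 ± 22.7 in the wild type, or 1.26 ± 0.13 (SE) in log2 (adjusted p = 0.0013 in limma). Cyp4a10 alone held 518 and 209 FPKM of these means, so the sum says little about Cyp4a31 or Cyp4a32.

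Cyp4a12a, the arachidonic acid omega-hydroxylase of male liver and kidney, was the most abundant member in the wild type. It held 314, 315 and 280 FPKM in the knockout and 319, 386 and 412 in the wild type. The groups did not overlap, but the highest knockout library and the lowest wild type library were nearly equal. The means were 303 ± 20.3 and 372 ± 47.9 FPKM, with a log2 fold change of -0.29 that did not pass (SE 0.13; limma adjusted p = 0.51).

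Cyp4a12b, its near-identical neighbour, held 20.8, 55 and 50.7 FPKM in the knockout and 27.1, 65.3 and 73.6 in the wild type. Replicate 1 was low in both genotypes, and the groups overlapped. Within each replicate number the knockout library was the lower of the pair. Limma gave -0.38 ± 0.41 (SE) in log2 (adjusted p = 0.85), with -0.82 to 0.06 when 1 library was left out. With the replicate as a block the SE was 0.11 and the member still did not pass (limma adjusted p = 0.24). The ratio of Cyp4a12a to Cyp4a12b was 15.1 in knockout replicate 1 and 11.8 in wild type replicate 1, while the other 4 libraries ran from 5.51 to 5.91. Summed into 1 feature, the pair had a log2 fold change of -0.29 (limma adjusted p = 0.56).

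**Figure D2:**
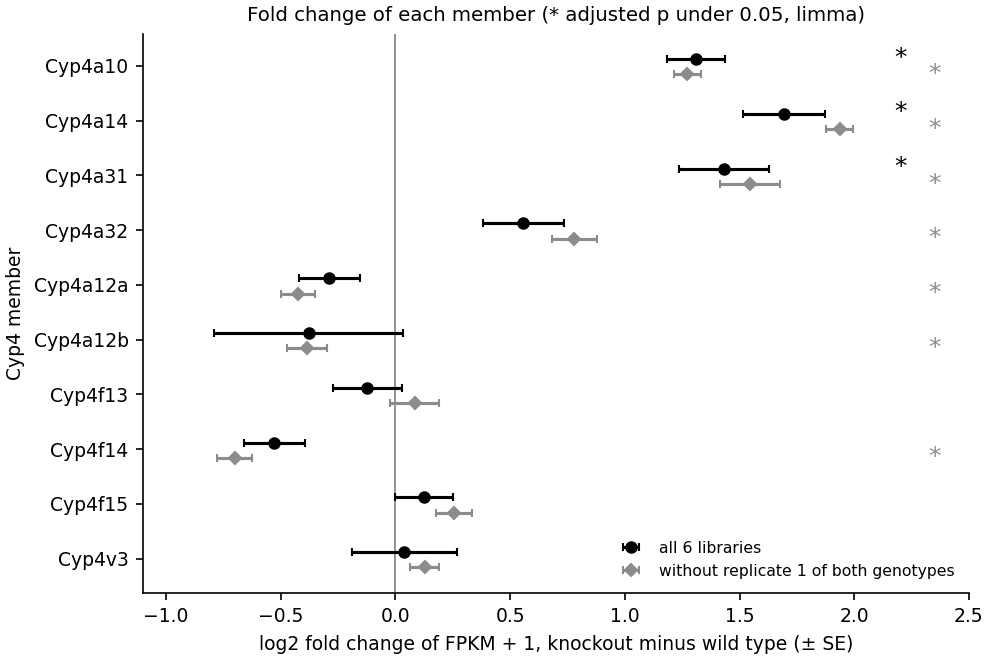
Log2 fold change of FPKM + 1, knockout minus wild type, with its SE for each Cyp4 member, from all 6 libraries (black circles) and without replicate 1 of both genotypes (grey diamonds); asterisks of the same shade mark limma adjusted p under 0.05. The 3 members that passed with all libraries lie between 1.31 and 1.69, and Cyp4f14, at -0.53, lies lowest.

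Among the Cyp4f genes, Cyp4f14, a leukotriene omega-hydroxylase of mouse liver, showed the largest difference. It held 65.7, 58.2 and 53.5 FPKM in the knockout and 74.8, 90.9 and 91.8 in the wild type, with no overlap. The means were 59.1 ± 6.16 and 85.8 ± 9.55 FPKM, and the log2 fold change of -0.53 did not pass the test (SE 0.13; limma adjusted p = 0.15).

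Cyp4f15, on the opposite strand of the same region, held 64.9, 76.4 and 80.2 FPKM in the knockout and 71.5, 68.4 and 62.6 in the wild type. The groups overlapped (log2 fold change 0.12, 95% interval -0.16 to 0.40, limma adjusted p = 0.83). Cyp4f15 ranked below Cyp4f14 in the wild type and above it in the knockout, and the ratio of Cyp4f15 to Cyp4f14 was 0.99, 1.31 and 1.5 in the knockout and 0.96, 0.75 and 0.68 in the wild type. The 2 replicates 1 had nearly the same ratio.

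Cyp4f13 held 23.7, 27.9 and 30.2 FPKM in the knockout and 34.8, 29.8 and 25.1 in the wild type. These values overlapped widely (log2 fold change -0.12, 95% interval -0.46 to 0.22, limma adjusted p = 0.88).

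Cyp4v3, a fatty acid omega-hydroxylase outside both clusters, held 113, 201 and 191 FPKM in the knockout and 124, 178 and 181 in the wild type. Replicate 1 was the lowest library of each genotype, and the groups overlapped almost fully. The log2 fold change was 0.04 (95% interval -0.47 to 0.55; limma adjusted p = 0.98), so a difference of moderate size in either direction was not detectable in this fit. With the replicate as a block the log2 fold change was again 0.04, with an SE of 0.11 (limma adjusted p = 0.92).

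Within the Cyp4a cluster the make-up of the transcripts differed between the genotypes. Cyp4a10, Cyp4a14, Cyp4a31 and Cyp4a32 summed to 1099, 1176 and 1200 FPKM in the knockout and 461, 395 and 412 in the wild type. They made up 77.0% ± 1.23 of all Cyp4a FPKM in the knockout and 49.9% ± 6.27 of it in the wild type (SD over 3 libraries). The 2 Cyp4a12 genes summed to 345 ± 21.6 and 427 ± 72.6 FPKM. All 10 members together took 0.314% ± 0.021 of the FPKM of a knockout library and 0.205% ± 0.023 of a wild type library.

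**Figure D3:**
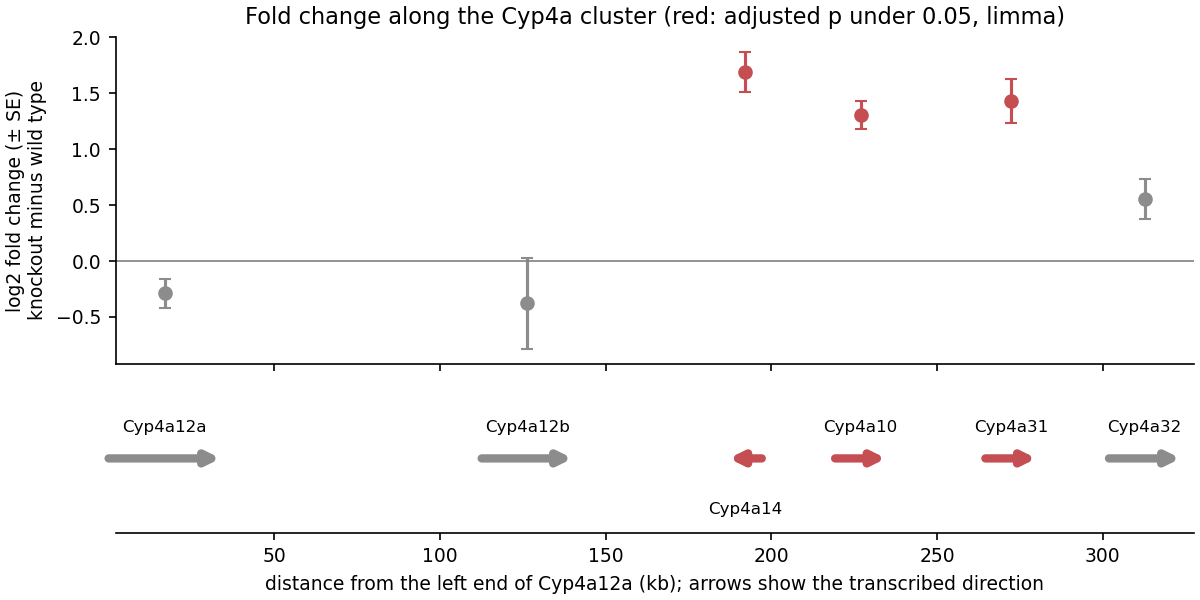
Log2 fold change with SE (upper panel) of the 6 Cyp4a genes against their distance from the left end of Cyp4a12a in kilobases (lower panel, arrows in the transcribed direction); red marks limma adjusted p under 0.05. The 3 genes that rose are neighbours in the middle of the cluster, with the Cyp4a12 genes on the left and Cyp4a32 on the right.

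Ratios within a library do not depend on how it was scaled. The ratio of Cyp4a10 to Cyp4a12a was 1.54, 1.68 and 1.93 in the knockout and 0.58, 0.56 and 0.55 in the wild type. The lack of overlap follows from the FPKM above, where Cyp4a10 was higher and Cyp4a12a lower in every knockout library. The ratio of Cyp4a14 to Cyp4a10 was 1.21, 1.12 and 1.13 in the knockout and 1.37, 0.72 and 0.70 in the wild type. Here the groups overlapped, since wild type replicate 1 was above every knockout library.

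**Figure D4:**
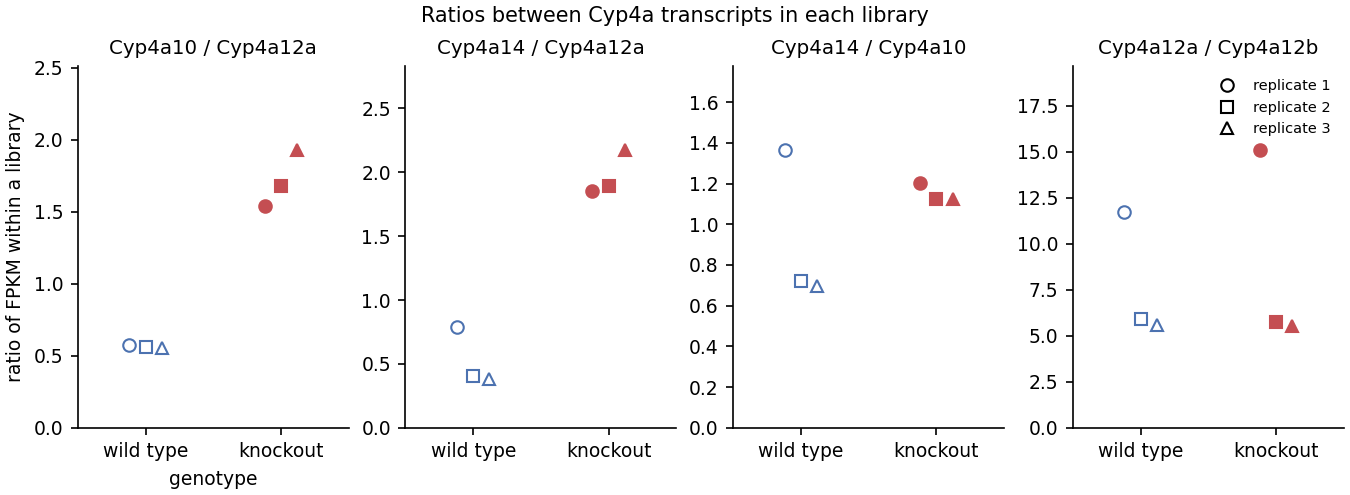
Ratio of FPKM between pairs of Cyp4a transcripts within each library, for wild type (open blue) and knockout (filled red), with marker shape for the replicate number. The ratios to Cyp4a12a separate the genotypes, as the FPKM of each gene in them already do. The ratio of Cyp4a12a to Cyp4a12b separates replicate 1 of both genotypes from the other 4 libraries.

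The difference of fold changes was tested against Cyp4a10. In limma, 7 of the 9 other members had a fold change below that of Cyp4a10. The difference was -1.60 for Cyp4a12a, -1.69 for Cyp4a12b, -0.75 for Cyp4a32 and -1.27 for Cyp4v3. It was -1.43 for Cyp4f13, -1.84 for Cyp4f14 and -1.19 for Cyp4f15. This test called 98.96% of all genes, and every difference carries the error of Cyp4a10, so the call itself says little about the members. An exact two-sided permutation of the genotype labels on each log2 ratio gave p = 0.10 for these 7 members. That is the smallest that this permutation of 3 against 3 allows, or 0.129 adjusted over the 9 ratios. Cyp4a10 itself was higher in every knockout library, so its ratio to a gene that changes little reaches this p anyway. The share of all genes at this p was not computed, so it too says little about the members. Cyp4a14 and Cyp4a31 were not separated from Cyp4a10. Their differences were 0.38 (95% interval -0.19 to 0.96) and 0.12 (95% interval -0.25 to 0.49), with exact permutation p = 0.40 and 0.60.

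Replicate 1 of both genotypes stood apart in several members, so the fit was repeated without both. Then 4 members rose and 3 fell, where 6.92% of all tested genes rose and 4.95% fell. Cyp4a10 (log2 fold change 1.27), Cyp4a14 (1.94) and Cyp4a31 (1.54) were joined by Cyp4a32 (0.78, limma adjusted p = 0.0016). Those that fell were Cyp4f14 (-0.70, limma adjusted p = 0.00078), Cyp4a12a (-0.42, limma adjusted p = 0.0082) and Cyp4a12b (-0.39, limma adjusted p = 0.026). Only 2 libraries a group remain in this fit, and they were chosen by the members' own values. A smaller scatter within the groups follows from that choice, so these calls are no separate support. The same limit holds for the counts from this fit given below for other genes. Those counts join both directions unless the direction is stated. Over all genes the calls went from 76 to 1183.

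Other known PPARα targets are given beside the members. Of 48 tested targets in 2 lists, the peroxisomal enzymes and the mitochondrial and cytosolic targets, 1 rose and 0 fell. Their median log2 fold change was 0.12, and 39 of the 48 were positive, beside 44.2% of all tested genes. Without replicate 1 of both genotypes 21 of the 48 rose and 2 fell, beside 6.92% and 4.95% of all tested genes, and the median was 0.24. That fit leaves out knockout replicate 1, where 19 of the 48 lay below all wild type libraries, so these values are no separate support. The gene that rose with all libraries was Acot3, a peroxisomal acyl-CoA thioesterase. It held 9.55 ± 1.69 FPKM against 4.45 ± 0.90 (log2 fold change 0.95, limma adjusted p = 0.045). The call was lost in several alternatives (limma adjusted p = 0.206 without knockout replicate 2, the highest). Fabp1, the liver fatty acid binding protein, held 2468, 5421 and 5522 FPKM in the knockout and 4524, 3781 and 4122 in the wild type, and it rose only in the fit without both replicates 1 (log2 fold change 0.47, limma adjusted p = 0.0014).

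Knockout replicate 1 differed most from the other knockout libraries in these targets. In it 11 of the 48 lay above all wild type libraries and 19 lay below them, while in knockout replicates 2 and 3 alike 31 lay above and 5 below. Of all tested genes 12.7% lay above and 37.0% below in knockout replicate 1, against 25.1% above and 25.5% below in replicate 2 and 31.1% above and 24.0% below in replicate 3. In knockout replicate 1 Cyp4a10, Cyp4a14 and Cyp4a31 were 1.21, 1.66 and 1.02 above the wild type mean on the log2(FPKM + 1) scale. Cyp4a32, at 0.14, was close to the wild type in that library. Acot3 was among the 11 targets above all wild type libraries there, at 11.3 FPKM against 5.39, 3.59 and 4.36. Plin4, named after its values were seen, had the highest log2 fold change of the 48 (1.07, limma adjusted p = 0.052). It held 3.4, 3.44 and 3.16 FPKM in the knockout and 1.85, 0.71 and 0.82 in the wild type.

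**Figure D5:**
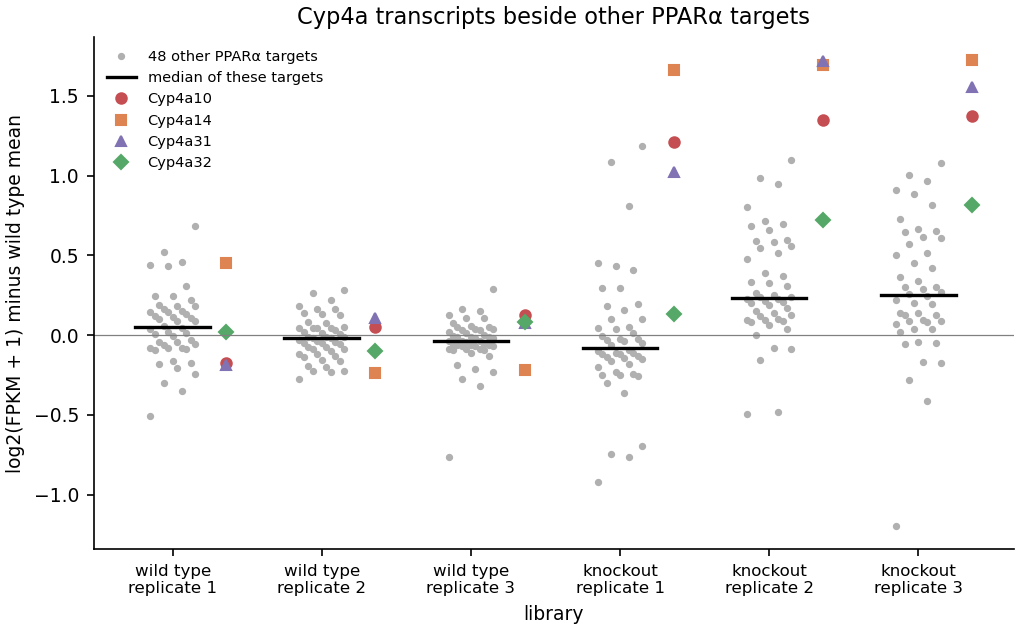
Log2(FPKM + 1) minus the wild type mean in each library for 48 other PPARα targets (grey points, black bar at their median) and for the 4 PPARα-responsive Cyp4a genes (coloured markers beside them). In knockout replicate 1 the median of the other targets is -0.08, against 0.23 and 0.25 in knockout replicates 2 and 3. Cyp4a10, Cyp4a14 and Cyp4a31 are above 1 in all 3. Single targets differ from that median, with 11 of the 48 above all wild type libraries in knockout replicate 1 and 19 below.

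Of 20 tested receptors, coregulators and liver factors, 0 passed the test (median log2 fold change 0.15). Only 0.762% of all tested genes passed, so a count of 0 says little. Without replicate 1 of both genotypes 4 of the 20 passed, beside 11.9% of all tested genes. With sample quality weights 5 passed, beside 11.5%. Ppara itself held 23.0, 40.0 and 43.4 FPKM in the knockout and 19.5, 40.4 and 38.3 in the wild type, low in replicate 1 of both genotypes (limma adjusted p = 0.95). Lpin1, a phosphatidate phosphatase and PPARα coactivator, held 113 ± 40.4 and 75.7 ± 19.6 FPKM. Nr1i3, the receptor CAR, held 103 ± 10.5 and 84.9 ± 10.8 FPKM. Ppara was named after its values were seen, as the receptor of these targets.

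The redox partners and the next enzymes of the route did not pass the test with all libraries. Of 4 tested partners 0 were called (median log2 fold change -0.08), beside 0.762% of all tested genes. Por, the reductase that feeds electrons to microsomal P450s, held 297, 296 and 335 FPKM in the knockout and 260, 203 and 176 in the wild type, without overlap (log2 fold change 0.55, limma adjusted p = 0.20). It passed without wild type replicate 1 (0.71, limma adjusted p = 0.030), with sample quality weights and without both replicates 1. Cyb5a held 1599 ± 95.4 and 1809 ± 265 FPKM. Of 5 tested dehydrogenases that make dicarboxylic acids 0 were called (median -0.31), with Adh1 at 724 ± 33.2 and 902 ± 91.5 FPKM and Adh5 at 192 ± 4.93 and 205 ± 33.8. The fit without both replicates 1 called 3 of these 5, beside 11.9% of all tested genes.

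Enzymes of eicosanoid and leukotriene metabolism, whose substrates overlap with those of the Cyp4f genes, had 0 of 9 tested genes called (median -0.10). Over all tested genes 0.762% were called. The fit without both replicates 1 called 2 of the 9, beside 11.9% of all tested genes. Ephx2, the soluble epoxide hydrolase, held 555 ± 22.5 and 465 ± 28.2 FPKM, and Ephx1 held 161 ± 13.2 and 162 ± 10.8. Among 5 other Cyp4 genes in the table, 2 were tested and 0 were called (median -0.05). Cyp4b1 held 6.30 ± 1.86 and 8.29 ± 1.19 FPKM and Cyp4f17 held 3.26 ± 0.76 and 2.53 ± 0.71.

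Gene lists that mark sex, liver zone or other cells are given because some moved with genotype. With 0.762% of all tested genes called, a count of 0 in so short a list says little. In bulk RNA, fewer cells of a type and less RNA per cell cannot be told apart. Of 14 tested male-biased genes, 1 rose and 2 fell (median log2 fold change -0.24). They were Elovl3, a fatty acid elongase (31.9 ± 5.62 against 13.2 ± 1.24 FPKM), Hsd3b5, a steroid dehydrogenase (24.3 ± 11.3 against 80.7 ± 11.1), and Nudt7, a peroxisomal CoA hydrolase (152 ± 19.3 against 271 ± 3.23). Each of these calls was lost in at least 1 alternative. Without replicate 1 of both genotypes 12 of the 14 were called, beside 11.9% of all tested genes. Cyp4a12a and Cyp4a12b are known as male-biased too, and a relation of their values to these genes was not tested. Of 6 tested female-biased genes 0 were called (median -0.27), with Cyp2a5 at 77.4 ± 22.6 and 103 ± 12.8 FPKM and Cyp2a4 at 12.8 ± 2.66 and 20.0 ± 4.17. The fit without both replicates 1 called 2 of these 6.

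Of 9 tested periportal markers, 1 rose, Etnppl, a phospholyase, at 44.7 ± 0.88 against 12.3 ± 0.87 FPKM (log2 fold change 1.78, limma adjusted p = 5.6e-05). The list summed to 3564 to 4239 FPKM in the knockout and 2507 to 2738 in the wild type, with a median log2 fold change of 0.56. The fit without both replicates 1 called 7 of the 9, beside 11.9% of all tested genes. Of 8 tested pericentral markers 0 were called, 5 were positive and 3 negative (median 0.06). The most abundant, Rnase4 and Rgn, were among the negative ones, while Glul, named after its values were seen, held 362 ± 22.0 FPKM in the knockout and 288 ± 22.0 in the wild type. Rnase4 held 683 ± 109 and 843 ± 34.9 FPKM and Rgn held 535 ± 46.8 and 718 ± 79.2. Without both replicates 1, 4 of the 8 pericentral markers were called. The part of zonal expression in the Cyp4 differences was not tested.

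Of 8 tested macrophage markers 0 were called (median -0.47), and the list summed to 66.6 to 128 FPKM in the knockout and 124 to 140 in the wild type. Cd5l held 32.1 ± 12.1 and 46.3 ± 3.87 FPKM and Clec4f held 29.9 ± 7.85 and 45.1 ± 1.98. Without replicate 1 of both genotypes 6 of the 8 were called, beside 11.9% of all tested genes. The lists of hepatocyte (7 tested, median 0.20), leukocyte (3 tested, -0.12), endothelial and stellate (8 tested, -0.17) and cholangiocyte markers (1 tested, -0.53) had 0 genes called. In the fit without both replicates 1 these lists had 3, 1, 1 and 1 genes called. None of the listed kidney and adipose markers reached the filter. Their part in the Cyp4 values was not tested.

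Among 3682 other genes with a mean of at least 10 FPKM, the profiles nearest to that of Cyp4a10 over the 6 libraries were those of Insig2, Elovl3, Gldc, Slc25a51 and Acmsd. Nearness is the root mean square difference of centred log2(FPKM + 1), which was 0.176 for Insig2 and 0.220 for Acmsd. Insig2, which retains the sterol sensor SCAP in the endoplasmic reticulum, held 70.1 ± 3.25 FPKM in the knockout and 34.4 ± 1.55 in the wild type. Nearest to Cyp4a14 were Etnppl (0.180), Mt1 (0.278), Bhmt (0.316), Elovl3 (0.329) and Pcp4l1 (0.374). Mt1, a metallothionein, held 560, 335 and 387 FPKM in the knockout and 222, 109 and 97.3 in the wild type. Wild type replicate 1 was the highest of its group, as for Cyp4a14. In the knockout, replicate 1 was the highest for Mt1 and the lowest for Cyp4a14. These genes were picked by their values in the same 6 libraries, so a shared difference between the genotypes follows from the choice.

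The genes around the clusters were read from the same fit. Within 500 kilobases of the Cyp4a cluster, 10 other genes were tested, 0 were called, and their log2 fold changes ran from -0.37 to 0.16. Around the Cyp4f genes 12 others were tested, 0 were called, and the range was -0.21 to 0.32. Over all tested genes 0.762% were called, so counts of 0 among so few genes say little. RefSeq promoter windows of GRCm38 (250 bases before to 50 after a start) were at hand for Cyp4a32, Cyp4f13, Cyp4f14, Cyp4f15 and Cyp4v3. None of these windows held AGGTCA, a core of nuclear receptor sites, on either strand, while 16.3% of 32851 windows did. That says only that these letters are not in those windows.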

How the data were processed

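The authors deposited 1 table of FPKM, per the file headers, for 15960 genes in 6 liver libraries. Total RNA was extracted with a Qiagen miRNeasy kit and libraries made with an Illumina TruSeq RNA kit, per the labels' protocols, and HISAT and mm10 are named in the submitters' processing notes. No source used here names the program that made the FPKM values, or says whether strand was used. With limma 3.58.1 under R 4.3.3, log2(FPKM + 1) was fitted without covariates (lmFit, then a trended eBayes) for genes reaching 1 FPKM in 3 or more of 6 samples, and p-values were adjusted by Benjamini-Hochberg over 9968 genes. The fit was tested on simulated data. Groups follow the genotype label.

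The members and lists were chosen with earlier results of these data known. Named genes are the 10 members. From each other list they are up to 3 called genes with the smallest adjusted p or, with none called, the 2 most abundant tested genes. The 5 nearest profiles of Cyp4a10 and Cyp4a14, and Cyp2e1, complete them. A gene that this rule takes is not reported here. The exact permutation of ratios was added after the data were seen. Depth was estimated from steps of low FPKM values in genes with 1 annotated transcript, for 3 length ranges and 5 offsets to the length. The offset of 50 bases had the best mean fit, and 70.6% to 83.7% of values then lay within 0.15 of a whole step. Coding sequences and positions came from GRCm38 annotation and were compared with Biopython 1.88.

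Replicate numbers come from the titles. Same-numbered samples deviated together from their group means (r = 0.30, 0.198 and 0.157 for replicates 1, 2 and 3), all above 0.1, so they were treated as paired in an alternative that adds the replicate block. The mismatched pair of knockout replicate 3 and wild type replicate 2 reached r = 0.212, above the matched values for replicates 2 and 3, and the values are not independent, as deviations sum to 0 in a group.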

Additional observations from a re-analysis of the deposited data

How the results depend on the processing

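Cyp4a10 and Cyp4a14 rose in all alternatives run, with log2 fold changes of 1.22 to 1.37 and 1.58 to 1.94. Genes called numbered 76 with all libraries, 32 with no filter on low values, 1151 with sample quality weights and 1183 without replicate 1 of both genotypes, and 29 to 211 with 1 library left out. Members called were 3, but 6 with sample quality weights, 7 without replicate 1 of both genotypes, 2 with no filter, and 2 to 4 with 1 library left out. With sample quality weights Cyp4a32 also rose (log2 fold change 0.71, limma adjusted p = 0.0036). In that fit Cyp4a12a (-0.35, limma adjusted p = 0.028) and Cyp4f14 (-0.63, limma adjusted p = 0.0014) fell. With near-identical copies summed, 2 of the 7 features were called. With no filter, 15875 genes differed from Cyp4a10, against 9874 with the filter. The tested genes also grew, from 9968 to 15960, so the 2 counts are not alike in base. Among the other lists 5 genes were called, against 2 with no filter, 9 with upper quartile scaling and 3 with no trend in the variance. The count was 60 with sample quality weights, 70 without replicate 1 of both genotypes, and 2 to 19 with 1 library left out. The number tested in each list is given above. Of all tested genes 0.762% were called in the main fit, 11.5% with sample quality weights and 11.9% without both replicates 1. With the replicate as a block, 72 genes and the same 3 members were called, and 8 genes of the other lists. The block took the call from Acmsd (limma adjusted p = 0.065) and Pcp4l1 (limma adjusted p = 0.113). Cyp4a14 rose more than Cyp4a10 with sample quality weights, and also where wild type replicate 1 or both replicates 1 were left out. The cause was not tested. Depth was estimated and not stated, and how reads were shared between near-identical copies is unknown, which limits what the separate values of Cyp4a10, Cyp4a31 and Cyp4a32, and of the Cyp4a12 pair, can show.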
